A study of Mus musculus with 6 samples.

Results

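The genes described are 53 mouse genes of the interferon response and of nucleic acid sensing. Listed by symbol, the 53 genes were chosen with earlier results of these data known. They comprise 8 RNA and DNA sensors with their adaptor and editing enzyme, 11 receptors, kinases, transcription factors and regulators, 5 genes of the oligoadenylate synthetase (OAS) family, 16 antiviral effectors, 3 genes of ADP-ribose signalling, 3 guanylate-binding proteins (GBPs) and 7 genes of antigen presentation. Of the 53 symbols, 51 matched a gene of the deposited table of 32285 genes. Mx1 and Mx2 are not analysed here. RNA was sequenced from germline stem (GS) cells, which are spermatogonial stem cells propagated in culture. All libraries carry the genotype WT and come from a single line, DBA-GFP GS cell. The tested cells were kept in 8 mM pyruvate medium (3 libraries) and the control cells in complete medium (3 libraries). Whether the libraries of a group stand for separate cultures is not stated in the labels, so the p-values describe the spread among these libraries, which may be technical. What else the media contained is not described in the labels.

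Cells detect viral or misplaced nucleic acid with cytosolic helicases such as Ddx58 (RIG-I) and Ifih1 (MDA5), which bind double-stranded RNA and signal through Mavs on mitochondria to switch on type I interferon genes. Secreted interferon binds the receptor Ifnar1 and Ifnar2, whose kinases Jak1 and Tyk2 activate transcription factors such as Stat2. With Irf9, Stat2 acts in a complex that binds the interferon-stimulated response element (ISRE) in front of antiviral genes. A second element of interferon-responsive genes is the gamma-activated site (GAS). Pluripotent stem cells are known for a weak interferon response.

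Library totals ran from 21830090 to 25562768 counts in pyruvate medium and from 20918312 to 26413080 in control. A floor of 3 counts equals 0.116 to 0.143 CPM (counts scaled to a common library size), and it covers counting error only. Control replicate 2 stood apart, with a score of 36.5 on a first principal component that took up 38.9% of the variance, against scores of -4.12 and 0.81 for the other controls. Pyruvate replicate 1 lay towards the other end, with a score of -27.2, against -1.42 and -4.64 for the other pyruvate libraries. Calls are also given without control replicate 2, and without pyruvate replicate 1 edgeR called 0 of the interferon genes and 1 of all tested genes. All 13 germ cell markers were detected, with summed levels of 4056 to 4276 CPM in pyruvate medium and 3987 to 4607 CPM in control. Without control replicate 2, edgeR called the stem cell factor Zbtb16 higher, by 0.45 (adjusted p = 0.00813), and the surface protein gene Tex101 fell by 0.39 (adjusted p = 0.00913). Zbtb16 had 347, 361 and 370 CPM in pyruvate medium and 252, 385 and 276 CPM in control, and Tex101 192, 180.1 and 188 CPM in pyruvate medium and 243, 182 and 246 CPM in control. Of 14 immune cell markers, 8 were at or under the floor in every library, Adgre1 and C1qb were at 0, and the sum was 6.63 to 9.83 CPM in pyruvate medium and 5.93 to 10.1 CPM in control. The 12 fibroblast markers, which include those of feeder cells, summed to 100.2 to 137 CPM in pyruvate medium and 89.8 to 113 CPM in control. The highest fibroblast sum was in pyruvate replicate 1, and 4 of the 10 tested markers stood above 0, with a median log2 fold change of -0.14. Without control replicate 2, 7 of the 10 stood above 0, against 52.4% of all tested genes. The median was 0.28, against 0.17 for the interferon genes in that fit. At an unadjusted p under 0.05 on all libraries, 1 was higher and 0 lower, against 7.94% and 6.44% of all tested genes. Without control replicate 2, 3 were higher and 0 lower at that threshold. The share of all genes in that fit is not given, so these counts cannot be weighed. After adjustment edgeR called 1 higher and 0 lower, against 2.33% and 1.82% of all tested genes. The gene called, Acta2, rose by 1.45 (edgeR adjusted p = 0.0254). It had 2.11, 1.71 and 1.95 CPM in pyruvate medium and 0.735, 2.35 and 0.668 CPM in control. The part of such cells in the results was not tested. Marker sums were 19.7 to 27.98 CPM in pyruvate medium and 24.5 to 25.6 CPM in control for endothelium, 24.4 to 29.3 CPM in pyruvate medium and 25.7 to 29.3 CPM in control for Sertoli cells, and 2.64 to 2.82 CPM in pyruvate medium and 2.82 to 4.003 CPM in control for Leydig cells, where Hsd3b1 and Insl3 were at 0.

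**Figure D1:**
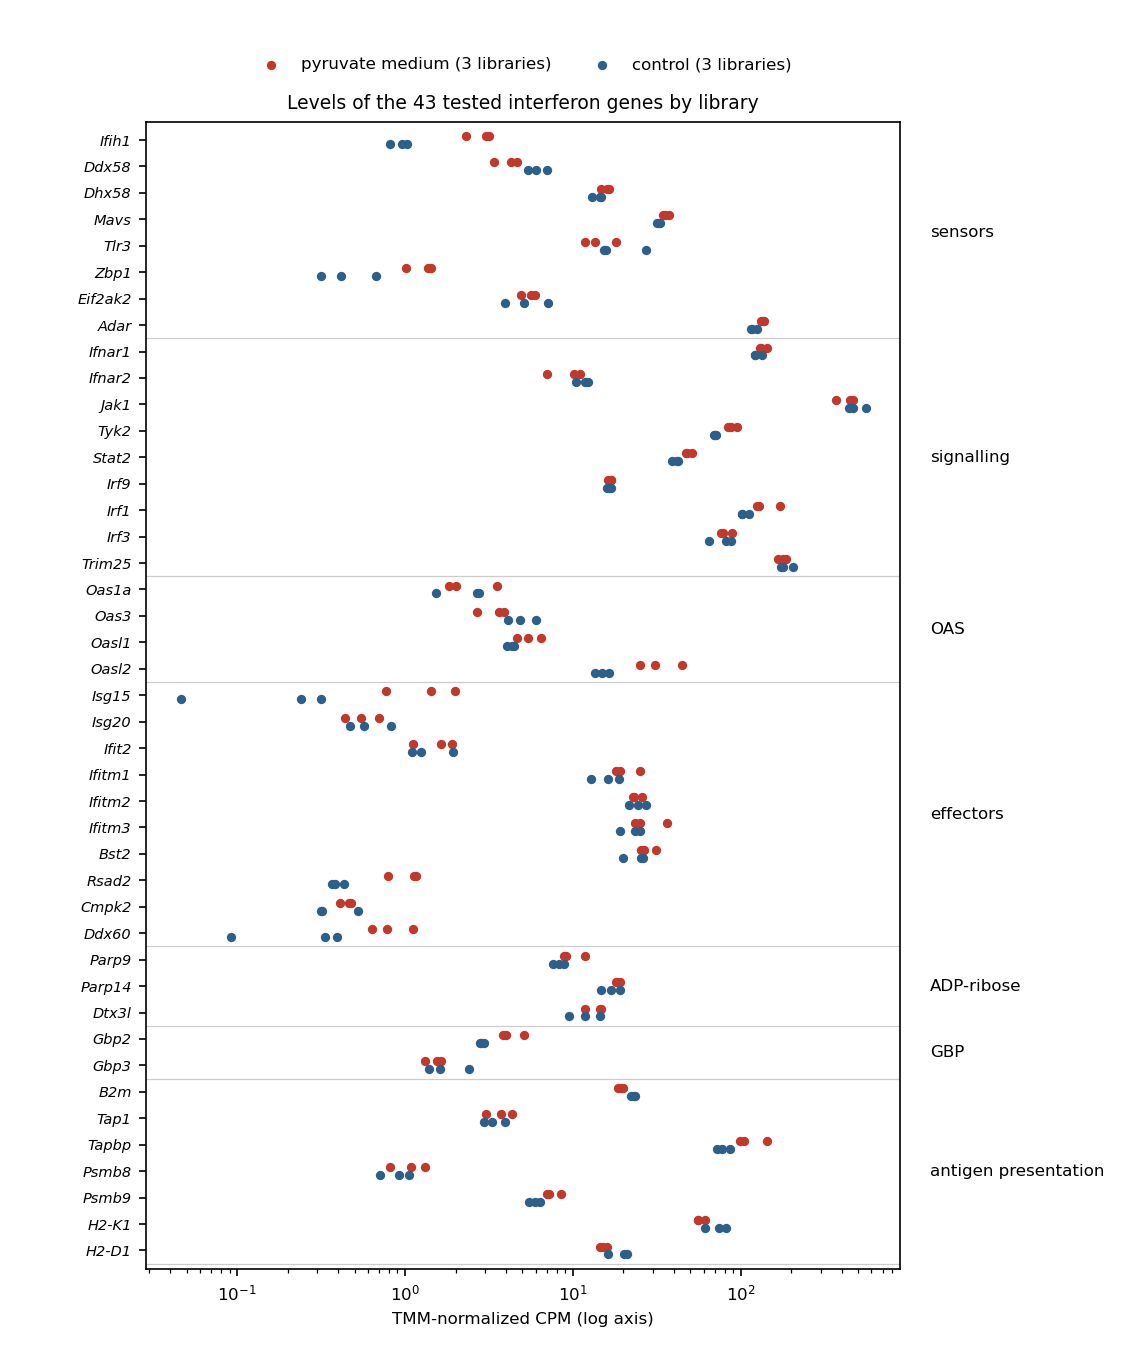
TMM-normalized CPM on a log axis for the 43 tested interferon genes, ordered by role. Each point is a library, red for pyruvate medium and blue for control; the genes span from under 1 CPM (Isg15, Ddx60) to over 300 CPM (Jak1), and in 23 of the 43 genes the groups overlap.

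The transcripts of the interferon pathway were unevenly present in these cells, as the plot of levels by gene shows. A total of 41 of the 51 genes were above the floor in all 6 libraries. Usp18, Isg15 and Ddx60 exceeded it in 5 libraries, Oas2, Ifit1, Xaf1 and Gbp7 in 4, Samd9l in 1, and Irf7 and Ifit3 in none. Per kb of exon, the most abundant transcript was that of the receptor kinase Jak1, at 59.2 ± 6.98 CPM per kb in pyruvate medium and 67.6 ± 8.11 in control (SD, n = 3 each, as for every later mean). Next in control stood Ifitm2, with 36.4 ± 2.59 CPM per kb in pyruvate medium and 37.3 ± 4.38 in control, Ifitm3, with 41.6 ± 10.2 in pyruvate medium and 33.3 ± 4.55 in control, and Trim25, with 30.8 ± 1.68 in pyruvate medium and 32.2 ± 2.79 in control. The control SDs of these last 3 genes overlap. The lowest levels in control were those of Irf7, at 0.010 ± 0.011 CPM per kb in pyruvate medium and 0.0041 ± 0.0070 in control, and of Samd9l, at 0.021 ± 0.013 in pyruvate medium and 0.016 ± 0.014 in control. Of the sensors, Ifih1 was the lowest in control. It had 0.348 ± 0.057 CPM per kb in pyruvate medium and 0.114 ± 0.013 in control, and the effector Rsad2 had 0.238 ± 0.047 in pyruvate medium and 0.091 ± 0.008 in control.

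Of the 51 genes, 43 passed a filter on low counts and were tested among 14912 genes. Under the quasi-likelihood test of edgeR, with p-values adjusted by Benjamini and Hochberg's method and a threshold of 0.05, 0 of the 43 were higher in pyruvate medium and 0 lower, where 0.0201% of all tested genes were called higher and 0.0335% lower. At an unadjusted p under 0.05, 13 were higher (30.2%, against 7.94% of all tested genes) and 5 lower (11.6%, against 6.44%). Zbp1, Isg15, Rsad2 and Ddx60, all among the 13, reached the filter through the pyruvate libraries alone, where they are high. Without these 4 genes, a step chosen after the values were seen, 9 of 39 were higher (23.1%). DESeq2 called 3 of the 36 genes to which it gave an adjusted p higher (8.33%, against 1.21% of all genes) and 0 lower (0.957% of all genes), while limma-voom called 0. Without control replicate 2, edgeR called 4 higher, namely Ifih1, Tyk2, Oasl2 and Isg15 (9.30%, against 2.33% of all genes). It also called 2 lower, namely H2-K1 and H2-D1 (4.65%, against 1.82%). Of the 4 called higher, Isg15 had reached the filter on all libraries through the pyruvate libraries alone.

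Fold changes were more often positive than negative. The log2 fold change, pyruvate minus control, was above 0 for 31 of the 43 genes (72.1%), against 48.1% of all tested genes, with a median of 0.15 against -0.01 for all tested genes. Without control replicate 2, 30 genes were above 0 and the median was 0.17, against 52.4% and 0.01 for all tested genes. In 16 genes every pyruvate library was above every control library (37.2%, against 11.9% of all tested genes), and in 4 every pyruvate library was below (9.30%, against 10.6%). Zbp1, Isg15, Rsad2 and Ddx60 reached the filter through the pyruvate libraries alone, where they are high, and these counts over the tested genes are a description. Leaving these 4 out, a step chosen after the values were seen, 27 of 39 genes (69.2%) stood above 0 with a median of 0.14, and in 12 (30.8%) every pyruvate library was above every control library. In the fit without control replicate 2, the median of these 39 genes was 0.12. In bulk RNA, fewer cells of a type and less RNA per cell cannot be told apart.

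**Figure D2:**
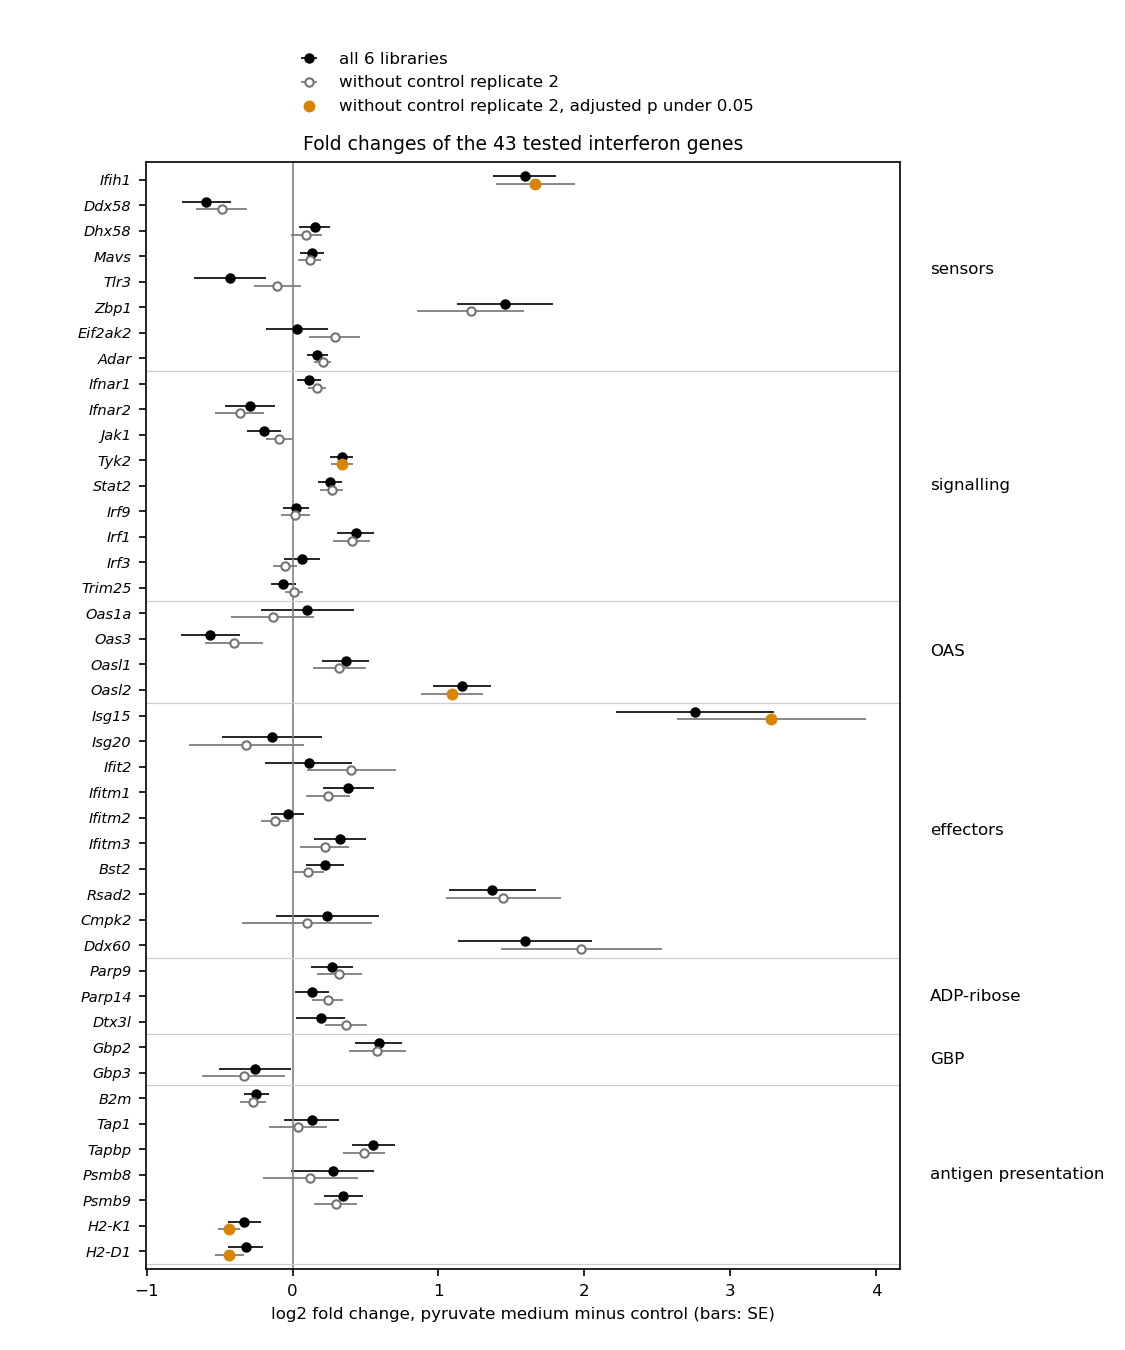
Log2 fold change, pyruvate medium minus control, of the 43 tested interferon genes, by role. Filled black points are the fit on all 6 libraries, open grey points the fit without control replicate 2 and bars the SE; orange marks Ifih1, Tyk2, Oasl2, Isg15, H2-K1 and H2-D1, whose adjusted p is under 0.05 without control replicate 2.

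Sequence in front of these genes was compared with that of all genes, since the ISRE is an element through which many antiviral genes are known to respond. Windows from 250 bases before to 50 after the gene start (RefSeq, GRCm38.p6) were at hand for 45 of the 53 genes. The ISRE core GAAANNGAAA, or TTTCNNTTTC on the other strand, was found for 18 of the 45 genes (40.0%), against 3.99% of 27025 genes with windows of the same length. Some genes had more than 1 window, up to 3, and a match in any of them counted. The GAS core TTCNNNGAA, which reads the same on both strands, was found for 12 genes (26.7%), against 9.55% of all genes. It shared bases with an ISRE core in Ifitm3 and Bst2. A match is a description of letters and not of binding. The sites of the following 9 genes are shown with ISRE cores in capitals and the strand of the gene. They were picked by level and comprise 6 with higher and 3 with lower pyruvate levels, all with groups that did not overlap. Of all tested genes, 11.9% were above and 10.6% below without overlap. Isg15, Rsad2 and Ddx60 reached the filter through the pyruvate libraries alone, where they are high. Picked in this way, the sites cannot show a link between core and level. Isg15 has 3 overlapping cores, and Ddx60 has a second site besides that shown.
Ifih1, chr2:62646206-62646235, minus strand: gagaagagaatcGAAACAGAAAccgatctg
Isg15, chr4:156200871-156200900, minus strand: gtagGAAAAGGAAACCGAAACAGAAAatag
Rsad2, chr12:26456553-26456582, minus strand: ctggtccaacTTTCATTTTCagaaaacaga
Ddx60, chr8:61928024-61928053, plus strand: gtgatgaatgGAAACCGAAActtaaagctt
Stat2, chr10:128270266-128270295, plus strand: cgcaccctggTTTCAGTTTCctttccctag
Gbp2, chr3:142620594-142620623, plus strand: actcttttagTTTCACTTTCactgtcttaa
Ddx58, chr4:40239804-40239833, minus strand: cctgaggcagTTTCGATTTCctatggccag
Oas3, chr5:120777715-120777744, minus strand: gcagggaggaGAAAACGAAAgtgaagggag
B2m, chr2:122147538-122147567, plus strand: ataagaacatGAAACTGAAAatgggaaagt

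The 250 bases before the start of Isg15 and of Oasl2 are shown whole, because in both genes all pyruvate libraries lay above the controls and, of the pair, only the window of Isg15 holds the core, in capitals. That the letters are missing from the Oasl2 window says nothing about factors bound elsewhere.
Isg15, chr4:156200819-156201068, minus strand: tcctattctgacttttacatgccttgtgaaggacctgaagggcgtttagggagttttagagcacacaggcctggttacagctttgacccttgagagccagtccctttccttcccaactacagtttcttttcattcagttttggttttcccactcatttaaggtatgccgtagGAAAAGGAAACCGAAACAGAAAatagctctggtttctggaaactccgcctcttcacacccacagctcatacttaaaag
Oasl2, chr5:114896684-114896933, plus strand: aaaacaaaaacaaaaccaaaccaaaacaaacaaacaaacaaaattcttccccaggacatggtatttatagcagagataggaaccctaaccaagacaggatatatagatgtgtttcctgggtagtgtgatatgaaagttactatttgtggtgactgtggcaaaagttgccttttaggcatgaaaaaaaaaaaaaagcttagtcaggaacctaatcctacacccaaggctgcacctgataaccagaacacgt

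Among tested genes with a window, the 15 that held an ISRE core had a median log2 fold change of 0.22, with 10 above 0. The 24 without one had a median of 0.13, with 17 above 0. Isg15, Rsad2 and Ddx60, which reached the filter through the pyruvate libraries, belong to the 15. Leaving these 3 out, a step chosen after the values were seen, gave a median of 0.07 over the other 12 genes with a core, 7 of them above 0, so the order of the medians turned. For the GAS core the medians were 0.11 in 11 genes with a match and 0.16 in 28 without. These are descriptions, and no difference between the sets was tested.

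**Figure D3:**
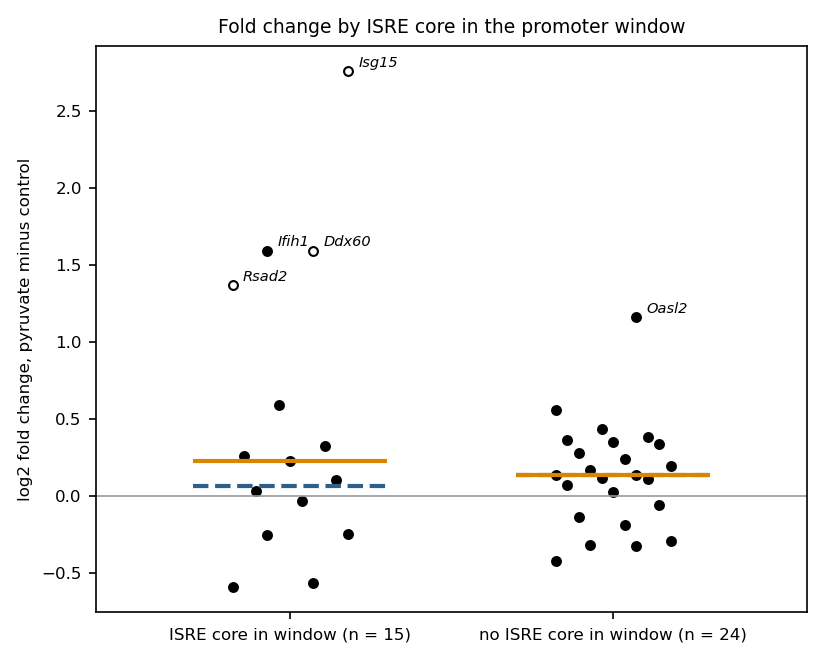
Log2 fold change, pyruvate medium minus control, of tested interferon genes with (n = 15) and without (n = 24) an ISRE core in the promoter window. Points are genes and orange lines medians, at 0.22 and 0.13; open points are Isg15, Rsad2 and Ddx60, which passed the filter through the pyruvate libraries, and dashed blue marks the median without them, 0.07 with a core, so the order of the medians turns.

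Among the sensors, the RNA helicases Ifih1 and Ddx58 stood on opposite sides. Ifih1 (ENSMUSG00000026896, GRCm38 chromosome 2, 62595798 to 62646255), which binds long double-stranded RNA, had 2.31, 3.02 and 3.18 CPM in the pyruvate libraries, against 0.965, 1.02 and 0.811 CPM in the control libraries. All pyruvate libraries lay above all controls, on 58, 78 and 70 counts in pyruvate medium and 21, 26 and 17 in control. Its log2 fold change was 1.59 (SE 0.22, edgeR adjusted p = 0.0613), and without control replicate 2 it rose by 1.67 (SE 0.27, adjusted p = 0.0128). Across the fits that left out 1 library its adjusted p ran from 0.0128 to 0.352, and DESeq2 called it at an adjusted p of 3.36e-04.

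Ddx58, the sensor of RNA ends known as RIG-I, had 4.26, 3.37 and 4.63 CPM in pyruvate medium and 6.02, 6.99 and 5.39 CPM in control. Its groups did not overlap, with the pyruvate libraries below, and the log2 fold change was -0.59 (SE 0.17, edgeR adjusted p = 0.189). Zbp1, a sensor of left-handed double-stranded nucleic acid, had 1.43, 1.01 and 1.36 CPM in pyruvate medium and 0.414, 0.314 and 0.668 CPM in control. The groups were separate, with a log2 fold change of 1.46 (SE 0.33, edgeR adjusted p = 0.134). Zbp1 reached the filter through the pyruvate libraries alone, where it is high, so its values are a description. Adar, which edits double-stranded RNA and so hides the cell's own RNA from these sensors, had 135, 137 and 131 CPM in pyruvate medium and 116, 126 and 117 CPM in control. Its pyruvate libraries lay above the controls by a log2 fold change of 0.17 (SE 0.07, edgeR adjusted p = 0.333). Exons of Adar overlap those of Chrnb2 on the opposite strand over 16.8% of their length.

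No sensor passed the test on all libraries, and without control replicate 2 Ifih1 alone did. Mavs, the adaptor of both helicases, had 35.3, 34.4 and 37.2 CPM in pyruvate medium and 33.2, 31.6 and 32.5 CPM in control, so its groups did not overlap (log2 fold change 0.14). Dhx58, the third helicase of the family, stood at 0.15, and Eif2ak2, the kinase that halts translation on double-stranded RNA, at 0.03. Tlr3, the endosomal receptor for double-stranded RNA, averaged 14.4 ± 3.22 CPM in pyruvate medium and 19.4 ± 6.66 CPM in control. Control replicate 2 held the highest Tlr3 level, 27.1 CPM, and the log2 fold change of -0.43 became -0.10 without it.

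Of receptor and signalling genes, the kinase Tyk2 and the transcription factors Stat2 and Irf1 had separate groups. Tyk2 (ENSMUSG00000032175) had 95.0, 83.9 and 86.9 CPM in pyruvate medium and 69.2, 70.5 and 70.8 CPM in control. The control libraries lay within 2 CPM of each other and below all pyruvate libraries. Its log2 fold change was 0.34 (SE 0.08, edgeR adjusted p = 0.145), and without control replicate 2 it rose by 0.34 (adjusted p = 0.034).

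Stat2, the partner of Irf9, had 51.1, 48.1 and 47.4 CPM in pyruvate medium and 38.9, 41.4 and 42.3 CPM in control. The groups did not overlap, at a log2 fold change of 0.26 (SE 0.08, edgeR adjusted p = 0.222). Irf1, which activates antigen presentation genes, had 171, 129 and 125 CPM in pyruvate medium and 102, 101 and 112 CPM in control. Pyruvate replicate 1 was highest and the groups were separate, at 0.43 (SE 0.13, edgeR adjusted p = 0.193).

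Other signalling genes overlapped between the groups. Irf9 averaged 16.7 ± 0.43 CPM in pyruvate medium and 16.4 ± 0.46 CPM in control, a log2 fold change of 0.02. Ifnar1 stood at 0.11 and Ifnar2 at -0.29, so the subunits of the receptor lay on opposite sides of 0, and Jak1 stood at -0.19. Irf3, which switches on interferon genes after sensing, stood at 0.07 (-0.05 without control replicate 2) and Trim25, the ubiquitin ligase that assists Ddx58, at -0.06 (0.01 without it). Irf7, which amplifies interferon production, had 2, 1 and 0 counts in pyruvate medium and 1, 0 and 0 in control. Usp18, which removes Isg15 from proteins and damps the receptor, had 10, 9 and 6 counts in pyruvate medium and 11, 4 and 2 in control. Neither Irf7 nor Usp18 was tested.

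**Figure D4:**
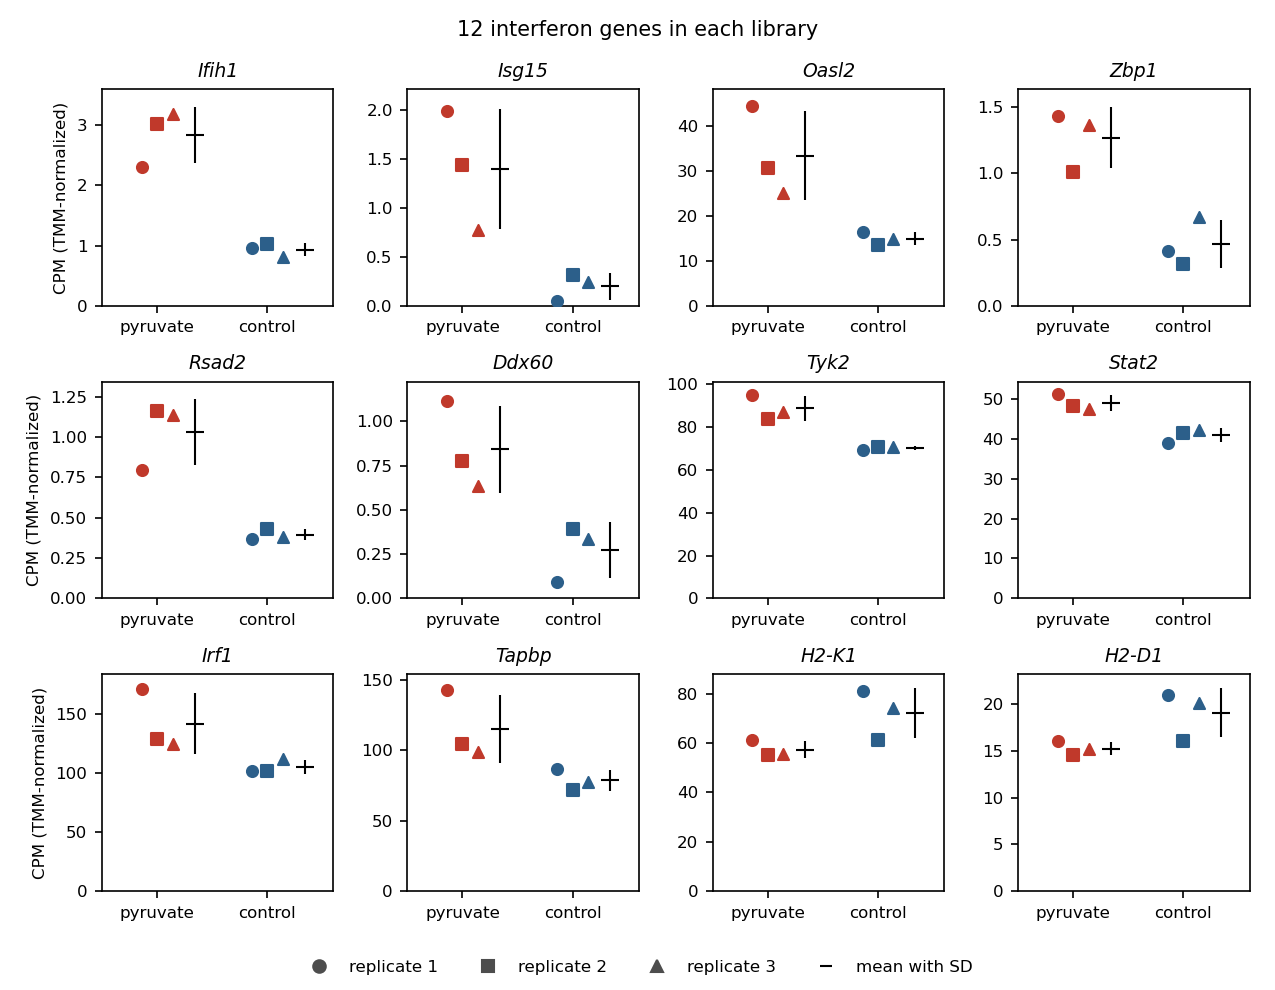
TMM-normalized CPM of 12 interferon genes, pyruvate medium left and control right in each panel, axes from 0. Each marker is a library, its shape the replicate number, and the bar is mean with SD (n = 3); the groups overlap only for H2-K1, where control replicate 2, at 61.2 CPM, lies just below pyruvate replicate 1, at 61.3 CPM.

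In the OAS family, several of whose enzymes make the messenger that activates RNase L, Oasl2 stood apart from its relatives. Oasl2 (ENSMUSG00000029561) had 44.4, 30.7 and 25.1 CPM in pyruvate medium and 16.5, 13.5 and 14.9 CPM in control. The groups did not overlap, and pyruvate replicate 1 was highest, as the plot of 12 genes shows. Its log2 fold change was 1.16 (SE 0.20, edgeR adjusted p = 0.0913), and without control replicate 2 it rose by 1.10 (adjusted p = 0.0289). DESeq2 called it at an adjusted p of 1.52e-05. Its neighbour Oasl1, which begins 11.005 kb past its end on the same strand, had 6.49, 4.61 and 5.41 CPM in pyruvate medium and 4.46, 4.04 and 4.34 CPM in control. Here the groups were only just separate, at 0.36 (SE 0.16, edgeR adjusted p = 0.348).

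Oas3 had 2.67, 3.88 and 3.63 CPM in pyruvate medium and 4.09, 6.04 and 4.87 CPM in control. All pyruvate libraries lay below the controls, at -0.56 (SE 0.20, edgeR adjusted p = 0.269). Oas1a stood at 0.10 and at -0.14 without control replicate 2. Oas2, which lies 3.244 kb from Oas3, had 4, 3 and 8 counts in pyruvate medium and 1, 7 and 4 in control and was not tested.

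The largest fold change among the tested genes was that of Isg15 (ENSMUSG00000035692), the ubiquitin-like protein that is attached to other proteins after interferon exposure. It had 1.99, 1.43 and 0.772 CPM in pyruvate medium and 0.0459, 0.314 and 0.239 CPM in control. These levels rest on 50, 37 and 17 counts in pyruvate medium and 1, 8 and 5 in control, and control replicate 1 lay under the floor. The groups did not overlap. The fitted log2 fold change was 2.76 (SE 0.54, edgeR adjusted p = 0.116), and without control replicate 2 it rose by 3.28 (adjusted p = 0.0258). Isg15 got no adjusted p from DESeq2. It reached the filter on all libraries through the pyruvate libraries alone, where it is high, so its values are a description.

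Rsad2 (viperin), an enzyme that makes a chain-terminating nucleotide, had 0.796, 1.16 and 1.14 CPM in pyruvate medium and 0.368, 0.432 and 0.382 CPM in control. Its groups were separate, on 75 counts in pyruvate medium and 27 in control over 3 libraries each, at a log2 fold change of 1.37 (SE 0.30, edgeR adjusted p = 0.13). Cmpk2, a nucleotide kinase gene 12.751 kb away that runs in the other direction, stood at 0.24 with overlapping groups. Ddx60, a helicase linked to RNA sensing, had 1.11, 0.775 and 0.636 CPM in pyruvate medium and 0.0919, 0.392 and 0.334 CPM in control. The groups did not overlap, at 1.59 (SE 0.46, edgeR adjusted p = 0.189), and its low counts were 28, 20 and 14 in pyruvate medium and 2, 10 and 7 in control. Both Rsad2 and Ddx60 reached the filter through the pyruvate libraries alone, where they are high, so their values are a description.

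Of 4 membrane effectors, 3 stood above 0, and none passed the test in either edgeR fit. Ifitm1, of the family that blocks virus entry, had 25.2, 18.1 and 19.0 CPM in pyruvate medium and 18.9, 12.8 and 16.2 CPM in control. Pyruvate replicate 2 lay below control replicate 1, so the groups overlapped, at 0.38 (SE 0.18, edgeR adjusted p = 0.371). Ifitm3 stood at 0.33, Ifitm2 at -0.03, and Bst2 (tetherin), which holds budding virus at the cell surface, at 0.22. The RNA-binding effector Ifit2 stood at 0.11 and the exonuclease Isg20 at -0.14. Exons of Ifitm2 overlap those of another annotated gene over 40.9% of their length, on the same strand.

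Among inducible effectors under the filter, Ifit1 had 7, 8 and 6 counts in pyruvate medium and 1, 6 and 1 in control. Ifit3 had 0 in every pyruvate library and 2, 2 and 0 in control. Xaf1 had 8, 8 and 7 counts in pyruvate medium and 3, 2 and 5 in control, and Samd9l 1, 3 and 4 in pyruvate medium and 0, 3 and 3 in control. These 4 genes were not tested.

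Parp9, Dtx3l and Parp14, which act in ADP-ribosylation and ubiquitin ligation downstream of interferon, all stood above 0, at log2 fold changes of 0.27, 0.19 and 0.14, and 0 passed edgeR's test (0 at an unadjusted p under 0.05). Only Parp9 had separate groups, at 9.08, 11.8 and 8.86 CPM in pyruvate medium and 8.32, 8.79 and 7.59 CPM in control. Parp9 and Dtx3l overlap head to head on opposite strands. Among GBPs, GTPases that attack the membranes around intracellular pathogens, Gbp2 had 5.10, 3.99 and 3.82 CPM in pyruvate medium and 2.80, 2.83 and 2.96 CPM in control. The groups were separate, at 0.59 (SE 0.16, edgeR adjusted p = 0.184). Gbp3, 47.392 kb away on the same strand, stood at -0.26, and Gbp7 had 3, 7 and 5 counts in pyruvate medium and 4, 6 and 1 in control.

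Of the 7 antigen presentation genes, 4 stood above 0 (Tapbp, Psmb9, Psmb8 and Tap1, of peptide supply and loading) and 3 below (H2-K1, H2-D1 and B2m, the chains of the class I molecule). H2-K1 (ENSMUSG00000061232) had 61.3, 55.2 and 55.8 CPM in pyruvate medium and 81.2, 61.2 and 74.3 CPM in control. Control replicate 2 lay among the pyruvate libraries, so the groups overlapped, and the log2 fold change was -0.33 (SE 0.11, edgeR adjusted p = 0.256). Without that library H2-K1 fell by 0.44 (adjusted p = 0.0184).

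H2-D1 (ENSMUSG00000073411) had 16.0, 14.6 and 15.2 CPM in pyruvate medium and 21.0, 16.1 and 20.2 CPM in control. The groups were only just separate, with control replicate 2 nearest to the pyruvate libraries, at -0.32 (SE 0.12, edgeR adjusted p = 0.292), and without control replicate 2 H2-D1 fell by 0.43 (adjusted p = 0.0376). B2m, the shared light chain, had 19.9, 19.3 and 18.6 CPM in pyruvate medium and 23.3, 22.1 and 23.4 CPM in control. Its groups were separate with tight spreads, at -0.25 (SE 0.09, edgeR adjusted p = 0.26), and at -0.27 (adjusted p = 0.115) without control replicate 2. Class I genes differ between mouse strains, the reads of this DBA line were mapped to mm10, and how related class I genes shared reads was not tested.

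Tapbp (tapasin), which holds empty class I molecules at the peptide transporter, had 143, 104 and 98.6 CPM in pyruvate medium and 86.6, 71.7 and 77.6 CPM in control. Pyruvate replicate 1 was far above the rest, and the groups did not overlap. The log2 fold change was 0.55 (SE 0.15, edgeR adjusted p = 0.171, and 0.0921 without control replicate 2), while DESeq2 called it at an adjusted p of 0.0371. Exons of Tapbp overlap those of a neighbour on the opposite strand over 24.9% of their length.

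Psmb9 had 6.97, 8.49 and 7.18 CPM in pyruvate medium and 6.34, 5.49 and 5.97 CPM in control. Its groups were separate, at 0.35 (SE 0.13, edgeR adjusted p = 0.291). Tap1, the peptide transporter subunit that overlaps Psmb9 head to head, stood at 0.13, and the immunoproteasome subunit Psmb8, 0.495 kb beyond Tap1, at 0.27, both with overlapping groups.

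Values of these genes were not spread evenly over libraries. Pyruvate replicate 1 held the highest level for 18 of the 43 tested genes (41.9%, against 24.5% of all tested genes), and control replicate 2 the lowest for 17 (39.5%, against 29.3%). The 18 include Zbp1, Isg15 and Ddx60, and the 17 include Zbp1, genes that reached the filter through the pyruvate libraries alone. Over the 39 genes left without Zbp1, Isg15, Rsad2 and Ddx60, the median deviation from the gene's mean log2 CPM was 0.06, 0.03 and 0.04 in the pyruvate libraries and -0.05, -0.11 and -0.08 in the control libraries. The median log2 fold change of the 43 tested genes was 0.15, 0.14 and 0.22 without pyruvate replicate 1, 2 or 3, and 0.15, 0.17 and 0.17 without control replicate 1, 2 or 3. Over the 39 genes it was 0.13 without pyruvate replicate 1 and 0.12 without control replicate 2.

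Upstream and beside these genes, the wider pathway was examined in lists likewise chosen with earlier results of these data known. Of 21 interferon ligand genes, of types I, II and III, all 21 had 0 counts in all 6 libraries. For reads assigned to a single gene, this allows a level of up to 0.116 to 0.143 CPM each by library. How reads shared by similar ligand genes were counted was not tested. Of 13 further receptors and regulators, 5 stood above 0 and 8 below, with a median log2 fold change of -0.03. In that list edgeR called 0 on all libraries (2 higher and 0 lower at an unadjusted p under 0.05, against 7.94% and 6.44% of all tested genes). DESeq2 called 1 higher and 0 lower, against 1.21% and 0.957% of all genes. Without control replicate 2, edgeR called 2 higher and 0 lower, against 2.33% and 1.82% of all genes. Irf8, a relative of Irf9, had 54.3, 51.6 and 49.0 CPM in pyruvate medium and 37.4, 35.6 and 37.7 CPM in control, with separate groups. It stood at 0.49 (edgeR adjusted p = 0.0913), rose by 0.46 (adjusted p = 0.0171) without control replicate 2, and was called by DESeq2 at 0.00171. The phosphatase Ptpn2 stood at -0.13.

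Of 23 tested further interferon-stimulated genes, 16 stood above 0 (69.6%, against 48.1% of all tested genes) with a median of 0.20, and 0 passed edgeR's test on all libraries. At an unadjusted p under 0.05, 5 were higher (21.7%, against 7.94% of all tested genes) and 1 lower (4.35%, against 6.44%), and DESeq2 called 0. The 3 of lowest p were Parp10 at 0.56, Uba7, the activating enzyme for Isg15, at 1.11, and Nlrc5, the activator of class I genes, at 1.10. Whether genes of the wider lists reached the filter through the pyruvate libraries alone was not examined, so these counts are a description. Rnf213 had 23.1, 22.8 and 26.6 CPM in pyruvate medium and 15.9, 25.8 and 15.5 CPM in control, and without control replicate 2 it rose by 0.62 (edgeR adjusted p = 0.0157). Among 12 further antigen presentation genes, 7 stood above 0 (58.3%, against 48.1% of all tested genes), and 0 passed edgeR's test on all libraries. At an unadjusted p under 0.05, 3 were higher (25.0%, against 7.94%) and 1 lower (8.33%, against 6.44%), and DESeq2 called 0. The peptide-trimming enzyme Erap1 had 59.9, 55.8 and 49.9 CPM in pyruvate medium and 40.8, 52.3 and 38.8 CPM in control. It rose by 0.47 (edgeR adjusted p = 0.0244) without control replicate 2. H2-Q7 stood at -0.43, and the proteasome activators Psme1 and Psme2 stood at 0.37 and 0.36 on all libraries.

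Of 14 tested genes of DNA sensing and its adaptors, 7 stood above and 7 below 0, with a median of 0.02, and 0 passed in either edgeR fit or by DESeq2 (1 higher and 1 lower at an unadjusted p under 0.05 on all libraries, against 7.94% and 6.44% of all tested genes). Tmem173 (STING) had 12.4, 14.4 and 16.9 CPM in pyruvate medium and 21.2, 18.3 and 20.4 CPM in control, at -0.45 (edgeR adjusted p = 0.191). Aim2 stood at 0.34 and Irf5 at -0.29. Among 7 tested NF-kappaB targets, 0 passed edgeR's test on all libraries (1 higher and 2 lower at an unadjusted p under 0.05, against 7.94% and 6.44% of all tested genes). Without control replicate 2, 2 fell (1.82% of all genes), and DESeq2 called the same 2 on all libraries (0.957% of all genes). Icam1, an adhesion molecule, had 19.0, 21.6 and 22.7 CPM in pyruvate medium and 30.5, 28.7 and 29.97 CPM in control, and it fell by 0.52 without that library (edgeR adjusted p = 0.0213). Nfkbia, the inhibitor of NF-kappaB, had 16.0, 19.4 and 22.99 CPM in pyruvate medium and 29.7, 25.5 and 29.4 CPM in control, and fell by 0.60 (adjusted p = 0.034). Relb stood at 0.28.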

How the data were processed

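The authors deposited raw counts per gene, whole numbers without normalization, for 6 libraries used here. RNA came from TRIzol extraction followed by column purification, and libraries from an Illumina stranded mRNA kit, per the labels' protocols. Per the submitters' processing notes, the tools were bcl2fastq 2.20, cutadapt 4.6, STAR 2.7.11a and HTSeq 2.0.5 and the build was mm10. For the counting, the annotation and strand setting were not given in the sources used here. For this reason 23 of the genes, with exons that another gene overlaps, are uncertain, as are families of similar genes (Oas, Ifit, Ifitm, GBP, class I, interferon ligands). A further 3 columns were not used. Symbols, positions and exon lengths came from GENCODE M21 on GRCm38.

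The analysis used edgeR 4.0.16 in R 4.3.3: filterByExpr at a minimum count of 10, TMM factors, the quasi-likelihood test with robust dispersions and Benjamini-Hochberg adjustment over all 14912 tested genes at 0.05. Levels are TMM-normalized CPM, and the SE of a fold change is its size over the square root of the F value. The genes and lists were chosen with earlier results of these data known. Values in every library are given for interferon genes and named others past the threshold with all libraries or without control replicate 2 and for the 20 interferon genes of lowest p, plus some others chosen after their values were seen. Alternatives used DESeq2 1.42.0, limma-voom (limma 3.58.1), other scaling and filters, a replicate block and leaving out each library. On simulated counts for these 14912 genes, the test recovered 43 of the 100 altered 1.5-fold and 75 of the 100 altered 2-fold, and called 9 unaltered genes. The simulated libraries varied independently around each gene's mean, and none was set apart as control replicate 2 was. Those rates therefore cannot be read as the power on the real libraries. No pair of libraries within a group agreed within sampling noise. A gene of the wider lists is not reported here.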

Additional observations from a re-analysis of the deposited data

How the results depend on the processing

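The count of interferon genes higher in pyruvate medium was 0 by edgeR's quasi-likelihood test (13 at an unadjusted p under 0.05), 1 with library totals as scaling (Ifih1), 2 with no filter (Ifih1 and Isg15), 3 with DESeq2 (Ifih1, Oasl2 and Tapbp) and 4 with the replicate block (those 3 and Isg15), and ran from 0 to 4 when single libraries were left out. The count lower was 0 (5 at an unadjusted p under 0.05), and 0 to 2 with single libraries left out. In both, the higher number came without control replicate 2, where edgeR called 2.33% of all tested genes higher and 1.82% lower. DESeq2 called 1.21% of all genes higher. For the other settings the share by direction is not given. The median log2 fold change was 0.15, 0.22 with no filter, where 51 genes entered, and 0.14 to 0.22 with single libraries left out. Genes with separate groups numbered 20. Of these, 16 were above (37.2%, against 11.9% of all tested genes) and 4 below (9.30%, against 10.6%). With fewer libraries, where separation is easier, they numbered 22 to 25, and the share over all genes is not given there. Without Zbp1, Isg15, Rsad2 and Ddx60, a setting added after seeing the data, the median was 0.14 and 16 genes had separate groups. Without these 4 genes, the median was 0.12 when control replicate 2 was left out and 0.13 when pyruvate replicate 1 was. Over all tested genes, both directions together, 8 were called. The number was 14 with library totals, 83 with no filter, 288 with DESeq2 and 265 with the replicate block. With single libraries left out it ran from 0 to 625, the 625 without control replicate 2. The cause was not tested. The labels do not say that a replicate number marks a shared culture, so the numbers were not taken as pairs. Same-numbered libraries correlated in their deviations at 0.31, 0.31 and -0.073, and pyruvate replicate 3 correlated best with control replicate 2 (0.15). With 3 libraries per group, these correlations cannot settle whether the libraries were paired.

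Of 547 log2 fold changes of the 43 genes under alternatives, 517 kept their direction and side of the threshold, 16 passed it and 14 turned round. All 14 arose by leaving out 1 library, in genes close to 0. With single libraries left out, the log2 fold change ran from -0.10 to 0.010 in Trim25 (positive without control replicate 2), from -0.052 to 0.16 in Irf3 (-0.052 without control replicate 2 and -0.0012 without pyruvate replicate 1), from -0.34 to 0.12 in Isg20 (0.02 without pyruvate replicate 1 and 0.12 without control replicate 1), from -0.070 to 0.40 in Ifit2 (-0.070 without pyruvate replicate 2 and -0.04 without control replicate 3), from -0.25 to 0.27 in Oas1a (-0.25 without pyruvate replicate 1 and -0.14 without control replicate 2), from -0.12 to 0.053 in Ifitm2 (positive without pyruvate replicate 3 or control replicate 1), and from -0.14 to 0.29 in Eif2ak2 (negative without pyruvate replicate 2, control replicate 1 or control replicate 3). Depth limits genes near 3 counts per library, and no value for separate groups was made with DESeq2 or limma-voom.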
